A study of Drosophila melanogaster with 4 samples.

Results

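The strongest binding sites of L(3)mbt on the large autosomal arms of Drosophila melanogaster were 503 regions, out of 2655 regions that chromatin immunoprecipitation and sequencing (ChIP-seq) listed on those arms at a false discovery rate of 0.5%. They were chosen by their own score, as the regions on 2L, 2R, 3L and 3R with a deposited score of 50 or more. They were 18.9% of the listed autosomal regions, and over all chromosomes 18.5% of the listed regions reached that score. The remaining 2152 autosomal regions, with a score below 50, are called the weaker regions here, and all regions of that list, on any chromosome, the filtered regions. The score is the authors' value for each 400 bp region, read as a mean signal per base. Because the score chose the sites, scores are given as a description and were not tested.

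L(3)mbt was precipitated from 2 samples, 1 of w1118, a laboratory stock with a mutation of the white gene, and 1 of Canton S, a wild-type stock. Input DNA without antibody came from 2 samples of these same stocks. The labels give no transgene and no mutation of l(3)mbt, and larvae were raised at 25 °C without treatment. The tissue, from larvae of the third instar, was brain together with wing, haltere and hind leg imaginal discs. Brain and discs were not separated, so a site bound in only some of these cells cannot be told apart from a site bound weakly in all of them. Each deposited list stands for a whole group. No value per stock was at hand, so neither a spread between samples nor a test over replicates was possible, and the sequencing depth is unknown.

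L(3)mbt is a chromatin protein whose MBT repeats bind methylated lysines of histone tails. It is found in repressive complexes, among them the Myb-MuvB (dREAM) complex and the LINT complex, and larvae that lack it develop malignant growth of the optic lobe neuroepithelium with ectopic expression of germline genes. The series title links the protein to insulator elements, which are DNA elements bound by proteins such as CP190, BEAF-32 and CTCF that limit contact between enhancers and promoters. The chromosome names of the deposited lists are those of genome release 5. The gene table used here is of release 6, so sites are named by position and were not joined to genes or sequences.

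The scores of the strong sites covered a wide range. The lowest was 50.03, the median 92.0 (order-statistic 95% interval 86.9 to 96.6) and the highest 358.7. A score of at least 100 was reached by 215 sites (42.7%), of at least 200 by 45 sites (8.95%) and of at least 300 by 9 sites (1.79%). The strong sites carried 60.2% of the summed score of all autosomal regions. The threshold cut through a continuous range of scores. The lowest sites inside it scored 50.29 on 2L (11948469 to 11948868), 50.05 on 3R (10522913 to 10523312) and 50.03 on 3L (13853132 to 13853531). The regions just outside it scored 49.89 on 2R (3804057 to 3804456), 49.86 on 3R (13846970 to 13847369) and 49.85 on 3L (8417811 to 8418210).

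Among the arms, 3R carried the most strong sites. It held 174 of the 503 (34.6%, exact binomial 95% interval 30.4 to 38.9%), against 622 of the 2152 weaker regions (28.9%) and 28.9% of the summed length of the arms. 2L held 116 strong sites (23.1%, 19.4 to 27.0%) and 3L held 114 (22.7%, 19.1 to 26.6%). 2R held the fewest with 99 (19.7%, 16.3 to 23.4%), although it carried 25.0% of the weaker regions. Read within each arm's own list, strong sites were 21.9% of the regions on 3R (19.0 to 24.9%), 19.7% on 2L (16.6 to 23.2%), 18.0% on 3L (15.04 to 21.2%) and 15.6% on 2R (12.8 to 18.6%). The intervals of 3R and 2R do not overlap, and those of the other arms overlap both. These intervals count regions as independent and cover counting error only, and the arms were picked out after their values were seen.

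By length, strong sites lay at 6.24 per Mb on 3R (exact Poisson 95% interval 5.35 to 7.24), 5.05 on 2L (4.17 to 6.06), 4.68 on 2R (3.81 to 5.70) and 4.65 on 3L (3.83 to 5.58). Over all 4 arms the density was 5.21 per Mb (4.76 to 5.69). The X chromosome, which the choice of sites left out, held 101 regions with a score of 50 or more, or 4.51 per Mb (3.67 to 5.47). Its regions of that strength made up 16.6% of its list, against 18.9% on the autosomal arms. The intervals of both densities overlap.

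The level of the scores differed little between arms. The median was 94.8 on 2L (order-statistic 95% interval 80.0 to 108.0), 95.2 on 2R (83.0 to 101.1), 81.4 on 3L (73.5 to 93.8) and 94.9 on 3R (86.9 to 105.2), with all intervals overlapping. On X the median of the regions with a score of 50 or more was 78.9 (71.0 to 91.5). The highest-scoring site of each arm scored 325.1 on 2L (12520356 to 12520755), 318.2 on 2R (21070394 to 21070793), 326.3 on 3L (14104537 to 14104936) and 358.7 on 3R (10921417 to 10921816).

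**Figure D1:**
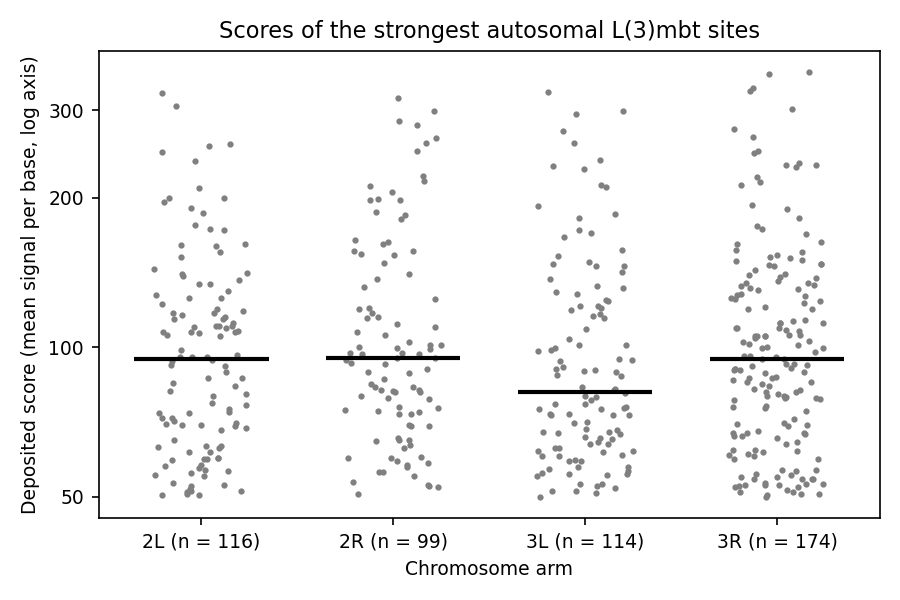
Deposited score of each strong site (grey points, log axis) by chromosome arm, with the median of the arm as a black line and the number of sites in the axis labels. The medians lie between 81.4 on 3L and 95.2 on 2R and the ranges overlap, while 3R has the most sites, 174.

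Below the 15 highest sites, the next 15 by score spread over all 4 arms, with scores between 272.9 and 233.2. 3R carried 5 of them, 2L carried 4, 2R carried 3 and 3L carried 3. On 3L, the region from 2531327 to 2531726 scored 272.9 with a height of 656.3 in the unfiltered ChIP list, in which each call is a 270 bp window with the authors' height on its own scale. Also on 3L, the region from 6543185 to 6543584 scored 257.4 with a height of 585.0, and that from 2851814 to 2852213 scored 238.5 with a height of 482.8. On 2R, the region from 19539759 to 19540158 scored 263.5 with a height of 769.6, and that from 11735421 to 11735820 scored 257.5 with a height of 806.1, the fourth highest among all strong sites. The region at chr2R:3901714-3902113 scored 249.1 but had a height of only 496.5. Order by score and order by height thus differed among sites of nearly equal score.

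On 2L, this group held chr2L:19887470-19887869 (score 256.8), chr2L:740036-740435 (255.0), chr2L:14588874-14589273 (247.8) and chr2L:20120822-20121221 (236.9). The last of them overlapped an input peak. On 3R, it held chr3R:11738872-11739271 (score 265.5), chr3R:2534580-2534979 (248.4), chr3R:22707059-22707458 (245.8), chr3R:22392499-22392898 (235.3) and chr3R:7415722-7416121 (233.2). No other filtered region lay within 10 kb of 11 of the 15, as for 283 of all 503 strong sites. Another filtered region did lie that near to 43.7% of the strong sites and to 56.9% of all autosomal regions.

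Along the arms, strong sites followed no steady trend from tip to centromere. When each arm was divided into 5 equal parts, the part at the tip held 101 strong sites, the next parts 106, 101 and 115, and the part next to the centromere 80. The share of strong sites among the listed regions of each part was 17.1%, 18.9%, 19.3%, 22.8% and 16.8% in that order. The single highest share was in the fourth part of 2L, where 26 of 81 regions were strong (32.1%), and the lowest was in the second part of 2R, where 12 of 114 were (10.5%). The last 1 Mb at the centromere side of the arms held 5 strong sites (0.994%, exact binomial 95% interval 0.324 to 2.30%) and 38 weaker regions (1.77%, 1.25 to 2.42%). The first 1 Mb at the tips held 28 strong sites (5.57%, 3.73 to 7.95%) and 115 weaker regions (5.34%, 4.43 to 6.38%).

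At a scale of 1 Mb, strong sites were uneven. The 94 complete windows held a mean of 5.27 and a median of 5 strong sites, with a variance 1.63 times the mean. The same windows held a mean of 22.6 weaker regions, with a variance 2.54 times the mean. Since the means differ, these ratios do not show which of both sets was the more uneven. Numbers of strong and weaker regions per window were nearly unrelated (Spearman's rho 0.11 over 94 windows from the same libraries, given as a description). The fullest window was at chr3R:12000001-13000000, with 19 strong sites beside 27 weaker regions, so that 41.3% of its regions were strong. Their scores ran from 50.4 to 333.1, with a median of 85.8. Only 2 of these 19 had another strong site within 10 kb, and the median distance to the nearest one was 44313 bp, so the window held many separate sites instead of 1 tight group.

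The next windows were at chr2R:11000001-12000000 with 13 strong sites, at chr3R:2000001-3000000 with 12, at chr3R:5000001-6000000 with 11 and at chr3R:17000001-18000000 with 10. Of the 5 windows with at least 10 strong sites, 4 were thus on 3R. Of these 5, the window on 3R from 2000001 had its strong sites closest together, with 5 of the 12 having another within 10 kb and a median distance of 16556 bp. Another 3 windows held no strong site. They were at chr2R:1-1000000 with 6 weaker regions, at chr2R:14000001-15000000 with 20, and at chr3L:23000001-24000000 with 2. The windows were named after their counts were seen.

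Between themselves, strong sites were mostly more than 10 kb apart. The median distance from a strong site to the nearest other one, centre to centre, was 64962 bp (order-statistic 95% interval 56974 to 72750 bp). The central 50% of sites had it between 24.7 and 118.6 kb away. Another strong site lay within 10 kb of 42 sites (8.35%, exact binomial 95% interval 6.08 to 11.1%), where a strong site lay within 10 kb of 10.7% of all autosomal regions. Of the 499 pairs of neighbouring strong sites, 4 were within 1 kb, 12 within 5 kb, 22 within 10 kb and 48 within 20 kb, while 280 were more than 100 kb apart. Linked by steps of at most 10 kb, they formed 18 pairs and 2 groups of 3, and 461 sites stayed single.

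The closest pair was on 3R, where the region from 27046189 to 27046588 (score 52.3) and that from 27046727 to 27047126 (54.3) had centres 538 bp apart. The region from 27045241 to 27045640, 948 bp from the first of them, scored 149.9, so 3 strong sites fell within less than 2 kb. These 3 sites each had 4 other filtered regions within 10 kb, which was the highest number for any strong site. In the other group of 3, also on 3R, the scores were unequal, since the region from 2534580 to 2534979 scored 248.4, the one 778 bp away scored 52.9 and that from 2532048 to 2532447 scored 96.2. Near the tip of 2L the partners were similar, with scores of 141.0 (72141 to 72540) and 109.5 (73088 to 73487) at 947 bp. The pair at chr3L:604709-605108 and chr3L:606923-607322 was nearly equal as well, with scores of 89.0 and 87.6 at 2214 bp. Strong sites with another one within 10 kb had a median score of 83.8 (order-statistic 95% interval 75.4 to 109.5), and those without had 92.6 (87.3 to 97.7), with overlapping intervals.

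Long stretches without a strong site still held weaker binding. The longest ran at chr2R:13759821-15390338, over 1631 kb, and held 41 weaker regions with scores up to 45.3, 248 calls of the unfiltered ChIP list outside the flanking sites and 699 input peaks. It was followed directly by the second longest, at chr2R:15390739-16439444, over 1049 kb and with 12 weaker regions. A single site with a score of 58.5 (15390339 to 15390738) separated them. The other long stretches were at chr3R:13745148-14754673 (1010 kb, 20 weaker regions), at chr3L:3616761-4553374 (937 kb, 34) and at chr3L:21946536-22856690 (910 kb, 10). All 5 stretches held between 418 and 699 input peaks. For comparison, weaker regions lay at 22.3 per Mb over all arms, and input peaks at 451.9 per Mb at 50 to 100 kb from strong sites. Against that density, the stretches of 1049, 1010 and 910 kb held fewer weaker regions for their length, and those of 1631 and 937 kb held more.

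Next, the neighbourhood of strong sites in the weaker parts of the data was described. Weaker regions were fewer around strong sites than around each other. A weaker region lay within 10 kb of 194 strong sites (38.6%, exact binomial 95% interval 34.3 to 43.0%), against 1160 of the 2152 weaker regions (53.9%, 51.8 to 56.0%) and 51.0% of all autosomal regions. The nearest weaker neighbour was usually low. Its median score was 13.3 (11.9 to 14.9), and it scored below 20 for 143 of the 194. Any other filtered region lay within 10 kb of 220 strong sites (43.7%, 39.4 to 48.2%) and of 59.9% of the weaker regions (57.8 to 62.0%), with 56.9% over all autosomal regions. X regions with a score of 50 or more were alike. A weaker region lay within 10 kb of 38.6% of them (29.1 to 48.8%), and any other filtered region of 43.6% (33.7 to 53.8%). All these lists come from the same ChIP libraries that gave the scores, so the differences are descriptions with counting intervals and no test.

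By density, filtered regions at 5 to 10 kb lay at 27.6 per Mb around strong sites and 41.7 per Mb around weaker regions. At 50 to 100 kb the values were 28.8 and 29.5 per Mb. At 5 to 10 kb the density was thus near its far level around strong sites and above it around weaker regions. The difference in shares at 10 kb was seen on each arm. Another filtered region lay within 10 kb of 38.8% of strong sites and 61.2% of weaker regions on 2L, of 47.5% and 64.1% on 2R, of 40.4% and 57.8% on 3L, and of 47.1% and 57.2% on 3R. The exact binomial intervals of strong sites and weaker regions were separate on 2L, 2R and 3L and overlapped on 3R (39.5 to 54.8% for strong sites and 53.2 to 61.2% for weaker regions). At 2 kb the shares over all arms were 12.9% of strong sites (10.1 to 16.2%) and 19.8% of weaker regions (18.1 to 21.5%), with 18.5% over all autosomal regions. Of the 503 highest autosomal calls of the unfiltered ChIP list, 6 overlapped no region of either filtered list. Each lay 428 to 959 bp from a strong site. The shares of strong sites leave such calls out, and calls left out beside weaker regions were not counted.

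Some strong sites were isolated. No other filtered region lay within 50 kb of 50 strong sites (9.94%, exact binomial 95% interval 7.47 to 12.9%), against 4.83% of weaker regions (3.97 to 5.83%). Another filtered region did lie that near to 90.1% of strong sites and to 94.2% of all autosomal regions. For X regions with a score of 50 or more it was 91.1% (83.8 to 95.8%). For 30 of the 50, no region listed only at the false discovery rate of 3% lay within 50 kb either. The isolated sites included 1 of the strongest of all, on 3L with a score of 326.3, and their median score was 98.9 (order-statistic 95% interval 73.7 to 139.0). The most isolated site, at chr3L:18453405-18453804 with a score of 146.1, was 157769 bp from the nearest filtered region, which was itself a strong site. At the other end, 5 strong sites had 4 other filtered regions within 10 kb. Besides the group of 3 on 3R, these were at chr2L:4454318-4454717 (score 107.5) and at chr2R:18962114-18962513 (64.7).

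Regions listed at a rate of 3% but not at 0.5% scored from 5.50 to 7.50 and are called marginal here. They lay within 10 kb of 117 strong sites (23.3%, exact binomial 95% interval 19.6 to 27.2%) and of 690 weaker regions (32.1%, 30.1 to 34.1%), with 30.4% over all autosomal regions. Of the 1003 autosomal marginal regions, 134 (13.4%, 11.3 to 15.6%) had a strong site within 10 kb. Neither a filtered nor a marginal region lay within 10 kb of 226 strong sites (44.9%, 40.5 to 49.4%). The matching share was not computed for the weaker or for all autosomal regions, so this one has no comparison.

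To compare spacing at equal numbers, the autosomal regions were ranked by score and divided into tiers of 503, of which the strong sites are tier 1. The tiers were set after the data were seen. The nearest region of the same tier was at a median of 64962 bp for strong sites (order-statistic 95% interval 56974 to 72750 bp), and at 63527 bp (47907 to 74003 bp), 50592 bp (42003 to 57018 bp), 46021 bp (39800 to 61076 bp) and 44478 bp (41255 to 55108 bp) in tiers 2 to 5. Another region of the same tier lay within 10 kb of 42 strong sites, and of 73, 85, 90 and 91 regions in tiers 2 to 5. Any other filtered region lay within 10 kb of 43.7% of strong sites, and of 56.1%, 58.1%, 60.4% and 65.0% of the regions in tiers 2 to 5. Strong sites were thus the most widely spaced tier in each of the 3 measures, with an interval for the nearest region that overlaps those of tiers 2, 3 and 4. At 2 kb, strong sites and tier 2 were nearly alike. Another filtered region lay that near to 12.9% of strong sites (10.1 to 16.2%) and 13.9% of tier 2 (11.0 to 17.3%). In tiers 3 to 5 it did so for 17.7%, 21.7% and 24.9%. The share on 3R was 34.6% for strong sites, or 174 sites, against 152, 150, 127 and 155 regions of tiers 2 to 5.

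**Figure D2:**
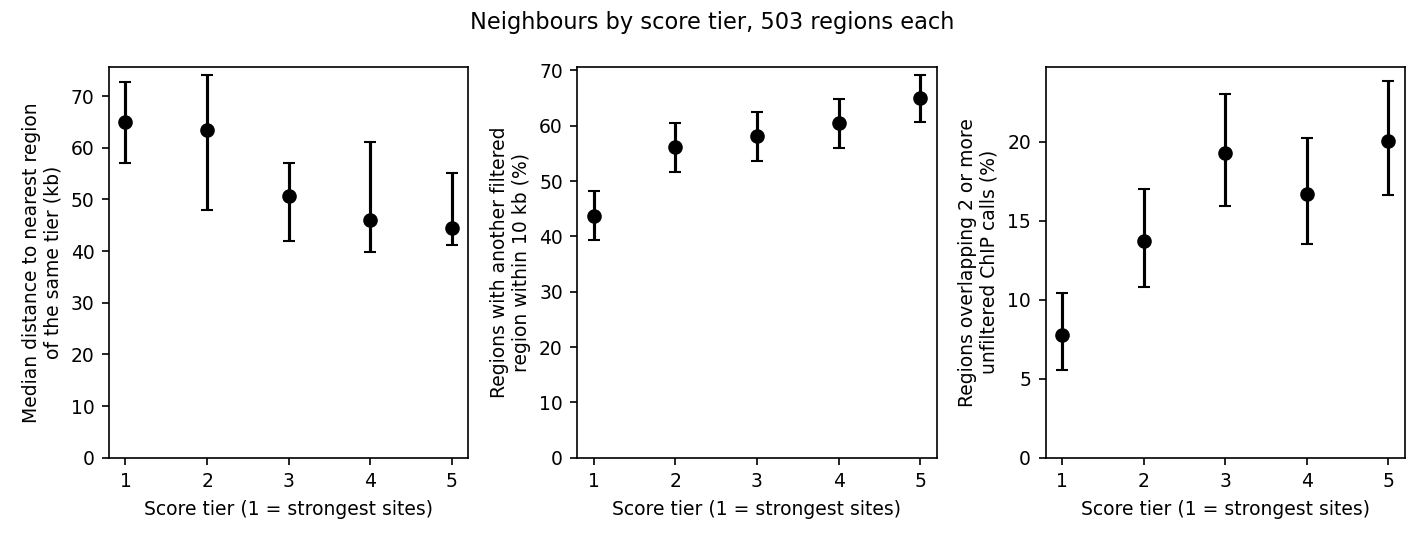
Neighbours of autosomal regions in 5 score tiers of 503 regions, with the strong sites as tier 1 at the left. The panels give the median distance to the nearest region of the same tier in kb, the percentage of regions with another filtered region within 10 kb, and the percentage overlapping 2 or more unfiltered ChIP calls, with 95% counting intervals as bars. Tier 1 has the longest distance, 65.0 kb, and the lowest percentages, 43.7% and 7.75%.

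Within the strong sites, isolation did not change evenly with score. In 4 groups of 125 or 126 sites by score, from highest to lowest, the median distance to the nearest other filtered region was 18292 bp (order-statistic 95% interval 14713 to 22480 bp), 11911 bp (9175 to 15377 bp), 8712 bp (7094 to 12759 bp) and 13021 bp (10806 to 15385 bp). A weaker region lay within 10 kb of 36 of the 126 sites in the highest group, and of 55, 58 and 45 sites in the next groups.

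The unfiltered ChIP list shows the same surroundings at lower signal. It holds calls with a height of 5 or more. Outside the 400 bp region itself, a call lay within 2 kb of 329 strong sites (65.4%, exact binomial 95% interval 61.1 to 69.6%) and of 72.6% of weaker regions (70.6 to 74.5%), with 71.2% over all autosomal regions. The mean number of such calls was 1.34 per strong site and 1.80 per weaker region. Most were low. A call of height 20 or more lay within 2 kb of 15.9% of strong sites (12.8 to 19.4%) and of 16.8% of weaker regions (15.2 to 18.4%), with 16.6% over all autosomal regions. The intervals of these shares overlap.

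By distance, unfiltered calls were densest next to the sites, and around strong sites their density changed little beyond 5 kb. At 0.2 to 0.5 kb from the centre their density was 573.2 per Mb around strong sites (exact Poisson 95% interval 491.0 to 665.3) and 800.0 per Mb around weaker regions (752.0 to 850.3). At 2 to 5 kb it was 183.9 per Mb (168.9 to 199.9) around strong sites and 297.7 per Mb (288.4 to 307.3) around weaker regions. At 10 to 20 kb it was 160.1 per Mb (152.4 to 168.2) around strong sites and 226.9 per Mb (222.4 to 231.5) around weaker regions. The values came closer at 50 to 100 kb, with 155.6 per Mb (152.2 to 159.1) around strong sites and 168.3 per Mb (166.6 to 170.0) around weaker regions. A call near several regions was counted for each, which makes these intervals too narrow.

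Over all arms, the density at 10 to 20 kb stood above its level at 50 to 100 kb around weaker regions, and was near that level around strong sites. On each arm it was lower around strong sites than around weaker regions. Around strong sites the density at 10 to 20 kb was 133.2 per Mb on 2L, 180.8 on 2R, 161.4 on 3L and 165.5 on 3R. Around weaker regions of the same arms it was 225.6, 243.7, 211.8 and 226.0 per Mb. These values by arm are given without intervals. Input peaks were alike at that distance, with 468.6 per Mb around strong sites (455.3 to 482.2) and 478.2 per Mb around weaker regions (471.6 to 484.7). Nearer the sites, input peaks were at 178.9 per Mb around strong sites (134.4 to 233.5) and 245.5 per Mb around weaker regions (219.2 to 274.1) at 0.2 to 0.5 kb. The order was the other way at 0.5 to 1 kb, with 349.9 per Mb (300.1 to 405.6) around strong sites and 295.5 per Mb (273.0 to 319.4) around weaker regions. At 1 to 2 kb it was 384.7 per Mb (347.3 to 425.0) around strong sites and 416.4 per Mb (397.3 to 436.1) around weaker regions. The input intervals overlap in each of these rings.

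**Figure D3:**
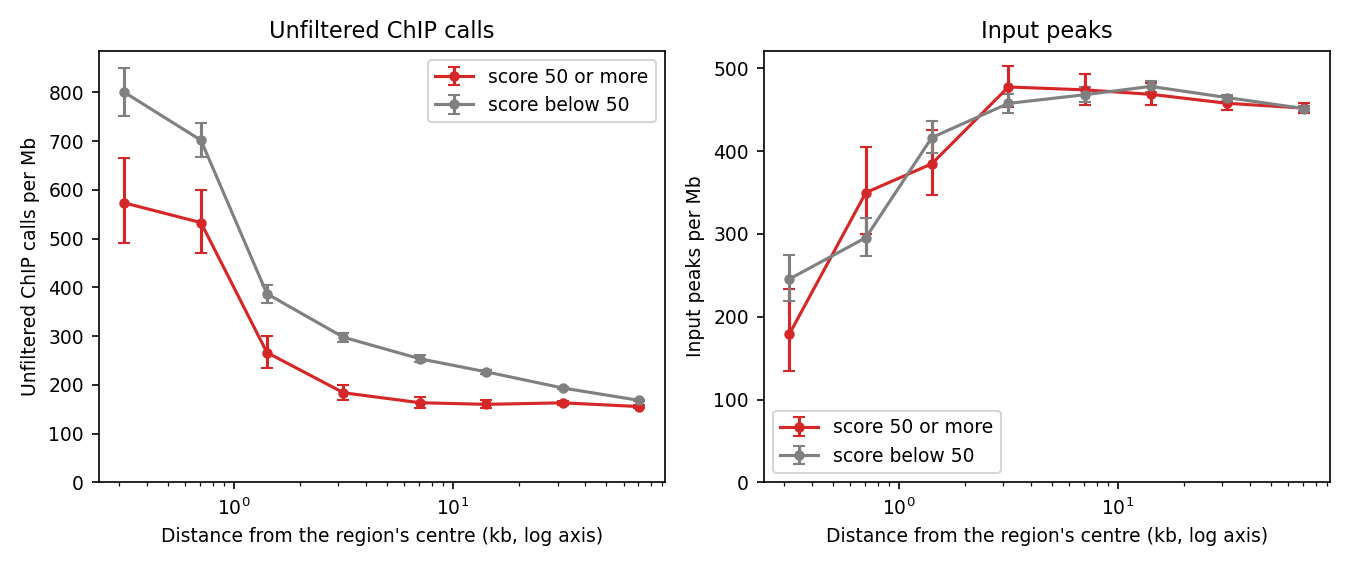
Density of unfiltered ChIP calls (left) and of input peaks (right) per Mb against distance from the centre of strong sites (red) and of weaker autosomal regions (grey), on a log distance axis, with exact Poisson 95% intervals. ChIP calls are sparser around strong sites from the nearest ring (573.2 against 800.0 per Mb) to 10 to 20 kb (160.1 against 226.9 per Mb), while input densities lie close together beyond 2 kb.

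At the sites themselves, all 503 strong sites overlapped a call of the unfiltered ChIP list. Its height, taken from the highest overlapping call, had a median of 212.9 (order-statistic 95% interval 197.7 to 225.6) and ran from 72.8 to 1028. At weaker regions the median height was 30.2 (28.9 to 30.8) and the highest was 157.9. Both values come from the same ChIP libraries and score and height are on scales that are not stated, so the difference is a description. Heights of both sets overlapped. A height below 157.9, the highest of any weaker region, was found at 130 strong sites, and 237 weaker regions reached the lowest height of a strong site.

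The call and the region had nearly the same centre. They were a median of 4 bp apart at strong sites (order-statistic 95% interval 3 to 4 bp) and 8 bp apart at weaker regions (7 to 8 bp). At most 10 bp separated them at 434 strong sites (86.3%, exact binomial 95% interval 83.0 to 89.2%) and at 59.2% of weaker regions (57.1 to 61.3%). Only 11 strong sites had centres more than 50 bp apart, with a maximum of 167 bp. Strong sites were mostly single calls, since 464 of them overlapped exactly 1 call, 38 overlapped 2 and 1 overlapped 3. The site with 3 calls was at chr3L:9423122-9423521, with a score of 55.6.

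Overlap with at least 2 calls was found at 39 strong sites (7.75%, exact binomial 95% interval 5.57 to 10.4%) and at 377 weaker regions (17.5%, 15.9 to 19.2%), with 15.7% over all autosomal regions. Among X regions with a score of 50 or more the share was similar to that of strong sites, at 8.91% (4.16 to 16.2%). On 2L the share was 3.45% of strong sites (0.947 to 8.59%) and 19.1% of weaker regions (15.6 to 22.9%). On 3L it was 7.89% of strong sites (3.67 to 14.5%) and 17.3% of weaker regions (14.1 to 20.8%), and on 3R 6.32% of strong sites (3.20 to 11.0%) and 18.0% of weaker regions (15.1 to 21.3%). On 2R it was 15.2% of strong sites (8.74 to 23.8%) and 15.8% of weaker regions (12.8 to 19.2%), with overlapping intervals. Among strong sites, the intervals of 3L and 3R overlap that of 2R, and a difference between arms was not tested. At most of the 39 strong sites the lowest call had a height below 10, near the list's minimum of 5. An example on 2L had a call of 5.93 beside one of 644.2. In contrast, a site on 3R had calls of 360.2 and 426.4. Heights of second calls at weaker regions were not compared.

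Score and height ranked the strong sites similarly, with a Spearman's rho of 0.96 over 503 sites, which share their libraries and positions. It was 0.93 over the weaker regions. Of the strong sites, 471 (93.6%, exact binomial 95% interval 91.1 to 95.6%) were also among the 503 highest autosomal calls, which had heights of 116.3 or more. The other 32 strong sites had scores from 50.03 to 65.6 and heights from 72.8 to 116.1.

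The relation of score to height varied between strong sites. The quotient of score over height had a median of 0.428, with the central 50% of sites between 0.400 and 0.465. It has no absolute meaning, since the scales are not stated, but a lower quotient means less mean signal over 400 bp for the same height. The median was nearly the same in the 4 groups by score, at 0.427, 0.424, 0.428 and 0.440 from highest to lowest, and 0.429 for the regions of that strength on X. At weaker regions it was higher, at 0.454 (order-statistic 95% interval 0.450 to 0.458), against 0.428 (0.422 to 0.433) at strong sites. A few sites departed from it. The lowest quotient, 0.230, was at chr3L:6052218-6052617, where a height of 293.8 went with a score of 67.5, rank 145 by height and rank 370 by score. At chr3R:17234091-17234490 the quotient was 0.246, with a height of 606.9 and a score of 149.4.

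Similar sites with high calls for their score were at chr3R:17005346-17005745 (height 201.3, score 52.7), at chr3R:1604463-1604862 (203.9, 54.9), at chr3L:2265726-2266125 (242.4, 63.9) and at chr2R:11895077-11895476 (211.5, 69.4). The opposite was seen at chr3R:12450323-12450722, where a score of 101.2 went with a height of only 171.8. It was also seen at chr3R:5589170-5589569 (score 85.3, height 142.4), at chr2R:7021839-7022238 (106.0, 179.8), at chr2R:11461232-11461631 (73.4, 122.1) and at chr2R:21076969-21077368 (75.4, 130.3). The highest quotient, 0.688, belonged to the lowest-scoring strong site, on 3L from 13853132. Each of these departing sites overlapped a single call.

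**Figure D4:**
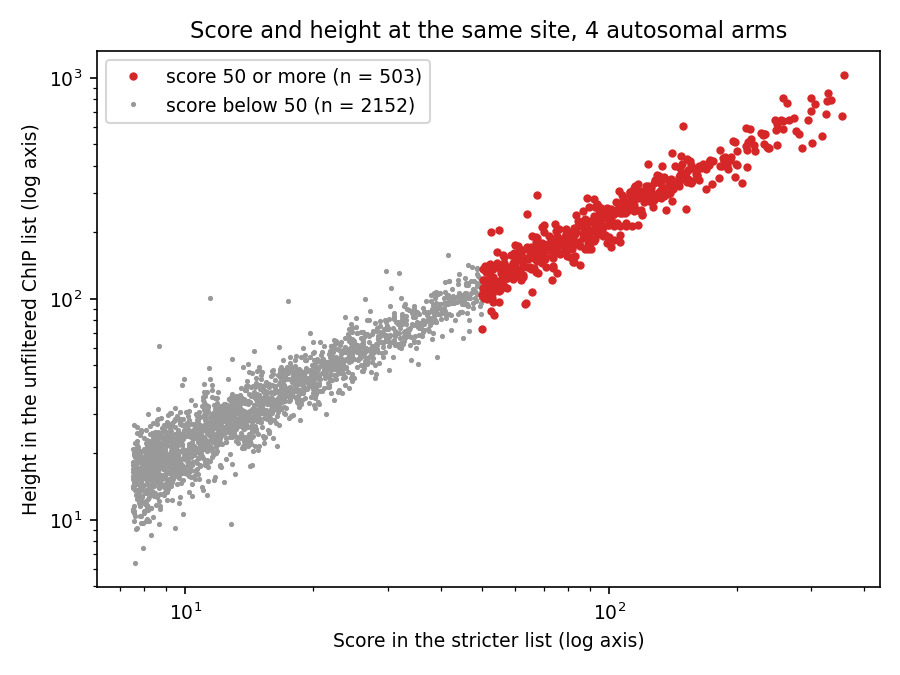
Height of the highest overlapping unfiltered ChIP call against the score in the stricter list, both on log axes, for 503 strong sites (red) and 2152 weaker autosomal regions (grey), each point a region. Both sets form 1 continuous band, with Spearman's rho of 0.96 among strong sites and 0.93 among weaker regions, and a few strong sites lie above it, such as that with a height of 606.9 and a score of 149.4.

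Overlap with input peaks was rare over all autosomal regions, and lower at strong sites than at weaker regions. An input peak shared at least 1 bp with 18 strong sites (3.58%, exact binomial 95% interval 2.13 to 5.60%) and with 150 weaker regions (6.97%, 5.93 to 8.13%), with 6.33% over all autosomal regions. Around both sets, input peaks were also sparser at 0.2 to 0.5 kb from the centre than at 10 to 20 kb. Over the tiers of 503 regions, the share was 3.58% for strong sites and the same in tier 2, then 6.16%, 9.15% and 7.75% in tiers 3 to 5. Whether the input list was called against ChIP is not stated in any source used here, and what part this has in the lower overlap was not tested. Out to 1 kb the shares were alike, with an input peak centred there for 34.6% of strong sites (30.4 to 38.9%) and 34.1% of weaker regions (32.1 to 36.2%), against 34.2% over all autosomal regions. Among X regions with a score of 50 or more that share was lower, at 13.9% (7.79 to 22.2%). An input peak overlapped 1 of these 101 X regions (0.990%, 0.0251 to 5.39%).

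The input peaks at the 18 strong sites were low in their own list, with heights from 5.17 to 12.2 and a median of 6.18, against a median of 5.64 for all input peaks on the autosomal arms. The strongest of these sites was at chr2L:20120822-20121221, with a score of 236.9 and the highest input peak of the 18, at 12.2. The next were at chr2L:6526963-6527362 (score 186.8, input height 8.38), at chr3L:21645897-21646296 (185.8, 5.17), at chr3R:16734406-16734805 (157.0, 6.12) and at chr3R:2696541-2696940 (131.3, 5.80). Below them came chr2L:10506655-10507054 (98.6, 5.22), chr3L:17981232-17981631 (93.8, 5.29), chr2R:5707550-5707949 (84.5, 7), chr2R:10898242-10898641 (79.9, 9.70) and chr3L:9607044-9607443 (75.1, 7.50). Sites with an input peak had a median score of 77.5 (order-statistic 95% interval 67.1 to 131.3), and sites without had 92.5 (87.6 to 97.2), with overlapping intervals.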

How the data were processed

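Libraries of 2 L(3)mbt ChIP and 2 input samples are described by the labels. Reads were processed with Bowtie (version not stated), per the submitters' processing notes. The authors deposited 4 peak lists, made with a caller named pypeak in the lists' names, each with 1 signal value per peak. Caller settings, build and any pooling of stocks are not stated in the labels or list names. The stricter list holds 3314 regions. The score of the filtered lists, multiplied by the 400 bp width, was whole within 0.01 for 100% of strong sites, so it was read as a mean per base. Heights of the unfiltered lists belong to 270 bp windows.

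Start positions were counted from 1. Distances run between centres and overlaps need at least 1 bp. Arm lengths run to the last listed peak in any list. Shares have exact binomial, medians order-statistic and densities exact Poisson 95% intervals, with the region as the unit and counting error only. No p-value was computed, since the lists hold no replicates. Sites, tiers and comparisons were chosen with earlier results of these data known. Beyond the strongest of each arm, named sites are ranks 16 to 30, the values next to the threshold, the 5 closest pairs, the 5 longest stretches, up to 10 sites with an input peak, those with the most neighbours and the 5 largest rank differences in each direction. Windows, the most isolated site, the site with 3 calls and the lowest and highest quotients were picked with their values known. The rule's lists of genes and its motifs were not used, since gene table and lists differ in release. Columns of other samples numbered 0. Functions for distances and overlaps were tested on simulated data. Python 3.11.15, numpy 2.4.6, pandas 2.3.3, scipy 1.17.1 and matplotlib 3.10.9 were used.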

Additional observations from a re-analysis of the deposited data

How the results depend on the processing

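Of 74 alternatives over 14 results, 52 stayed within the counting interval of the reported value or, for the number of sites, within 1.5 times. The shares on the arms and among the highest calls were of this kind in every alternative run. With a score threshold of 75, 332 sites remained. With thresholds of 40, 60 and 75, the median distance to the nearest other strong site was 50101, 74804 and 86952 bp, the median height was 184.5, 245.1 and 277.4, and Spearman's rho of score and height was 0.963, 0.945 and 0.941. With distances of 5 and 20 kb in place of 10 kb, another strong site lay near 4.37% and 18.1% of sites, a weaker region near 23.3% and 58.6%, and a marginal region near 12.5% and 36.2%. In the longer list a weaker neighbour lay within 10 kb of 50.5% of strong sites. Unfiltered calls lay within 1 and 5 kb of 53.9% and 81.3%, and calls of height 10 or more within 2 kb of 30.8%. An input peak shared 100 bp or more with 1.19% and was centred within 1 kb of 34.6%. These alternatives were run for strong sites only. Whether the differences from weaker regions hold under them was not tested, and the 50.5% cannot be set against shares in the stricter list.

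No paired analysis was possible because the lists hold no value per stock. Leaving out a sample was not run for the same reason, and the depth behind the lists is unknown.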

Other observations

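High calls without a filtered region of their own lay beside strong sites. Of the 503 highest autosomal calls of the unfiltered ChIP list, 474 overlapped a strong site and 23 overlapped a weaker region, with scores from 29.7 to 49.8. The other 6 overlapped no region of either filtered list. Each of the 6 had a strong site as its nearest filtered region, with centres 428 to 959 bp apart. The highest of them was at chr3R:12086162-12086431, with a height of 478.6, and lay 451 bp from the strong site from 12086548 to 12086947 (score 333.1, height 789.3). The next was at chr3R:13442338-13442607, with a height of 266.6 at 599 bp from a site with a score of 126.6. At chr2R:21077993-21078262 a call of height 161.4 lay 959 bp from a site with a score of 75.4. The remaining ones were at chr2L:1492287-1492556 (height 146.3, 428 bp from a score of 118.3), at chr3R:5694234-5694503 (123.0, 595 bp from 102.8) and at chr2L:540956-541225 (122.6, 433 bp from 65.1). Input peaks were 1046 bp or more away from each of these calls. Counts of close pairs of strong sites, and of filtered regions near strong sites, leave out such second calls. The highest call at a weaker region was at chr2L:4448818-4449087, with a height of 157.9 and a score of 41.6.
Outside the large autosomal arms, 111 further regions scored 50 or more, of which 101 were on X, 7 on the fourth chromosome and 3 on Het scaffolds. The highest of them scored 264.5 on X (1846954 to 1847353, height 748.5), 184.1 on the fourth chromosome (89194 to 89593, height 408.3) and 188.9 on 3RHet (2107012 to 2107411, height 400.4).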
